A study of Mus musculus with 32 samples.

Results

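The Gimap genes encode the GTPases of immunity-associated proteins, a family of small GTP-binding proteins found mainly in lymphocytes. The 8 members described here, Gimap1, Gimap3, Gimap4, Gimap5, Gimap6, Gimap7, Gimap8 and Gimap9, were taken by name from a table of 46517 genes, and all 8 passed the filter on low values. They were selected on their levels in these same libraries, above all the low level of Gimap7 in skin against spleen, so their differences are given as a description with standard errors and no p-values.

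Bulk RNA was sequenced from 32 libraries of sorted CD8+ Thy1.1+ Pmel T cells, in 8 groups of 4. Pmel T cells carry a transgenic receptor for an antigen of melanocytes that melanoma cells also make. Skin, lung, liver and lymph node memory T cells were collected 45 days after the tumor was removed. The other groups are T cells from tumor, T cells from spleen, T cells of the tumor-draining lymph node at day 12, and naive Pmel T cells from spleen. No source used here gives collection times for the tumor, spleen and naive samples. All 8 groups are labelled with the strain C57BL/6, an age of 16 weeks and melanoma-associated vitiligo, the naive group included. Lymph nodes were dissociated mechanically and skin was digested with collagenase, whereas lung and liver were digested and then passed over a Percoll gradient. The labels do not say that the 4 replicates of a group are separate animals, so the spread between them may be partly technical.

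All 16 T cell marker genes were above 0 in every library, with Cd8a between 57.0 and 1293 TPM and Cd3e between 155 and 1194 TPM. TPM is a transcript's share of its library, a level corrected for gene length. The summed T cell markers were under 0.5 of the median library in 6 libraries, namely skin replicate 4, liver replicates 2, 3 and 4, tumor replicate 4 and spleen replicate 4. The libraries numbered 4 stood apart across the series: they had the highest B cell marker sum in 8 of 8 groups, the most genes above 0 in 6 and the lowest T cell marker sum in 5. Cd4 was at most 11.02 TPM in any library. Liver libraries held much RNA of other cells, with hepatocyte markers summing to 690 to 21930 TPM and erythroid markers to 557 to 91051 TPM, and liver replicate 2 had only 10732 genes above 0. Fewer cells of a type and less RNA per cell cannot be told apart in bulk libraries. The depth of the libraries is unknown, because TPM keep no read counts.

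As background, Gimap proteins share a GTP-binding domain and many sit on the membranes of organelles such as lysosomes, the endoplasmic reticulum or mitochondria. Mice that lack Gimap1 or Gimap5 lose mature peripheral T cells, and the loss of Gimap5 underlies the T cell lymphopenia of the diabetes-prone BB rat. The family is therefore known mainly for the survival and quiescence of lymphocytes.

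All 8 members lie side by side on chromosome 6 within chr6:48647234-48770851 of GRCm38 (the mm10 build), a stretch of 123618 bp. In chromosome order they are Gimap8 (chr6:48647234-48660875), Gimap9 (chr6:48676129-48679114), Gimap4 (chr6:48684549-48692060), Gimap6 (chr6:48701582-48708225), Gimap7 (chr6:48718621-48724636), Gimap1 (chr6:48739054-48743795), Gimap5 (chr6:48746197-48754210) and Gimap3 (chr6:48764464-48770851). Gimap6 and Gimap3 are on the minus strand and the other 6 are on the plus strand. The GENCODE annotation places 13 genes in this stretch, 8 of them members. Of the other 5, Gm28053 is annotated as a protein-coding gene that runs over Gimap7, Gimap1 and Gimap5, and Gimap1os is an antisense transcript over Gimap1. Reads of these overlapping genes cannot be assigned with certainty, since no source used here gives the strand setting of the counting.

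The promoters of 4 members are shown because these members stood at the ends of the family's range of behaviour. Gimap7 had the widest span between groups, Gimap4 and Gimap9 varied most alike, and Gimap8 had the narrowest span and varied least like the rest. Each window is RefSeq sequence of GRCm38.p6 on the plus strand and runs from 250 bases before to 50 bases after the gene's start, 5′ to 3′. Gimap7 is chr6:48718371-48718670, Gimap4 is chr6:48684328-48684627, Gimap9 is chr6:48675885-48676184, and the first of the 2 Gimap8 windows in the table is chr6:48646984-48647283. Capitals mark matches to any of 6 short motifs, searched on both strands: CACCC (bound by KLF factors), GGAAGT (ETS), TGTGGT (RUNX), CTTTGA (TCF and LEF), TGTTTAC (FOXO) and TGGGAA (RBPJ).
Gimap7: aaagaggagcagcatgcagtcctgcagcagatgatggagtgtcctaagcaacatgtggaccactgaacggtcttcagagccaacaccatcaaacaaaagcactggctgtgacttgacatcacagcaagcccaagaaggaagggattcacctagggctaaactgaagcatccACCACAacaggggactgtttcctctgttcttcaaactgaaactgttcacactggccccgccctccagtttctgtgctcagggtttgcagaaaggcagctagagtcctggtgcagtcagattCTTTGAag
Gimap4: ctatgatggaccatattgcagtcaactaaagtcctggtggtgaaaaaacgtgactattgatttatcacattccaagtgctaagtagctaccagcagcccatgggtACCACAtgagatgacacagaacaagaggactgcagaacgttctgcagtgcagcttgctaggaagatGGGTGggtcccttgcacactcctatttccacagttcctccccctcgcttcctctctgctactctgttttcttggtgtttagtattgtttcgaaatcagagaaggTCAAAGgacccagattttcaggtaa
Gimap9: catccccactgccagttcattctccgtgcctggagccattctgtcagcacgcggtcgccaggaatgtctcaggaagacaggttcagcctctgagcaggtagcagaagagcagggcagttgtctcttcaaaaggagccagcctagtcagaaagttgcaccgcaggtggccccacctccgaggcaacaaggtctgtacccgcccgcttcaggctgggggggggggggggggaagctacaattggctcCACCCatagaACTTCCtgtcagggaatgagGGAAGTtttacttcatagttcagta
Gimap8: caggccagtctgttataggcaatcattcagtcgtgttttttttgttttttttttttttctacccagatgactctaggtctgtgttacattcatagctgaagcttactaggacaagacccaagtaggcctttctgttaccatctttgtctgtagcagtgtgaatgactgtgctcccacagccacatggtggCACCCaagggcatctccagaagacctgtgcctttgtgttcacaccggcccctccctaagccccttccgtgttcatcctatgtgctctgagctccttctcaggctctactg

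In these windows the Gimap7 promoter has a match to the RUNX motif at -79 and to the TCF and LEF motif at 42, counted from the start site. Gimap4 has matches to the same 2 motifs, at -145 and 25, plus a KLF match at -79. The Gimap9 promoter has a KLF match at -5 and ETS matches at 5 and 25, and the Gimap8 window has a single KLF match at -60. Over all 8 members, the KLF letters were found in 5, the ETS letters in 4, the RUNX letters in 3 (Gimap1, Gimap4 and Gimap7), the TCF and LEF letters in 2 and the FOXO and RBPJ letters in 1 (Gimap3). In Gimap3 a KLF match overlaps the RBPJ match. Among 32817 promoter windows of the same length, 57.5% held the KLF letters, 23.8% the ETS letters, 16.8% the RUNX letters, 16.0% the TCF and LEF letters, 3.65% the FOXO letters and 25.6% the RBPJ letters. A match describes letters and is not a binding site.

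Across the 8 groups every member was lowest in skin. The 4 skin libraries were below every library outside liver for all 8 members, and below every liver library too for Gimap4, Gimap6 and Gimap9. The highest mean was in naive cells for Gimap3, Gimap6, Gimap8 and Gimap9, in tumor for Gimap4, Gimap5 and Gimap7, and in lymph node memory cells for Gimap1. Because the members were chosen with these values known, the order is a description. The share of all genes with skin below every other group was not computed, so nothing is read from these counts. The plot of all 8 members by library shows the same order.

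**Figure D1:**
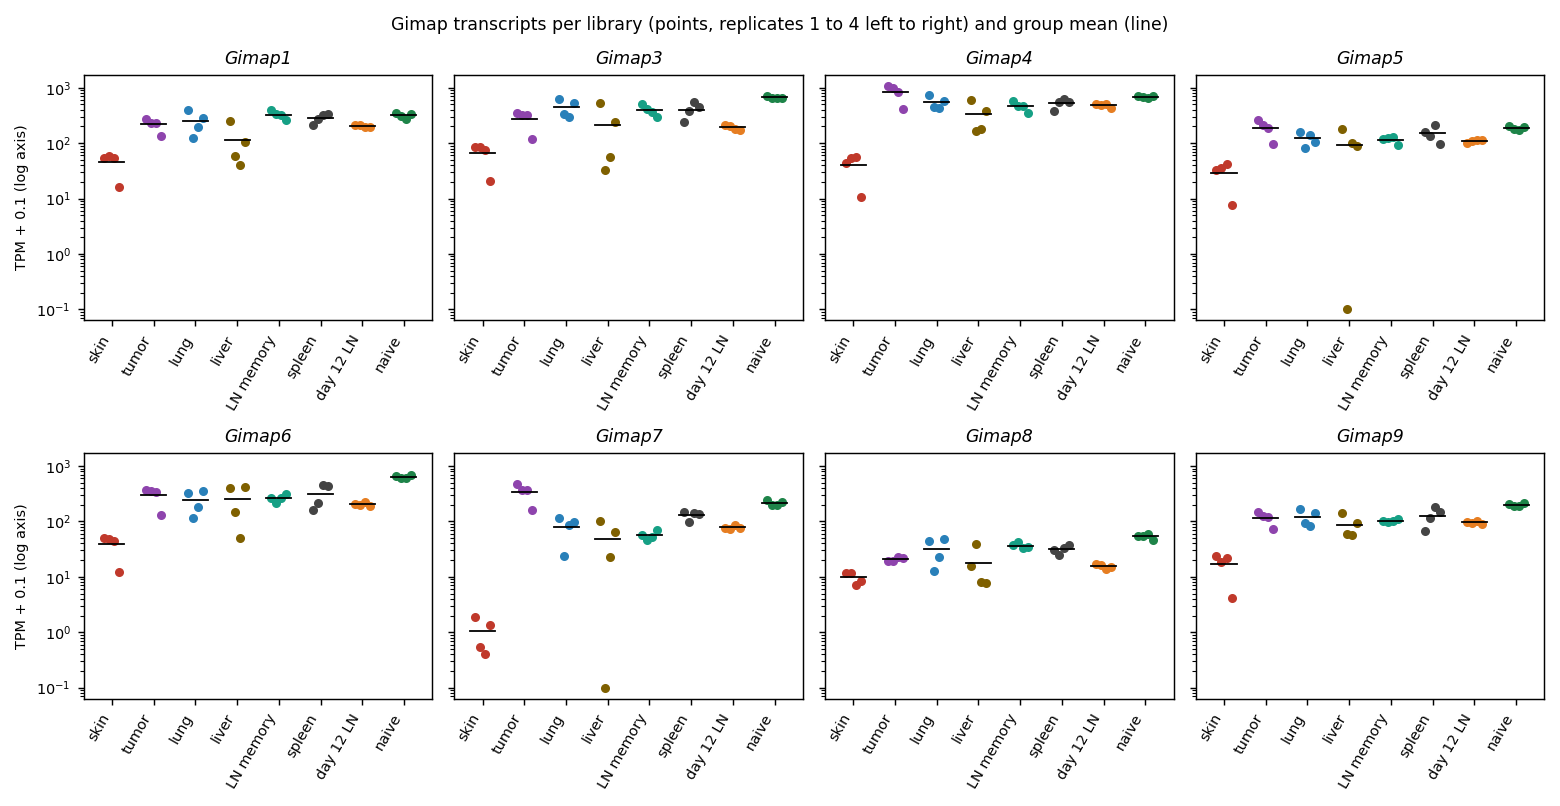
TPM + 0.1 on a log axis for each Gimap gene, 1 panel per gene, with 1 point per library (replicates 1 to 4 from left to right within a group) and a line at the group mean. Skin points lie lowest in all 8 panels apart from single liver libraries, Gimap7 in skin lies between 0.30 and 1.79 TPM, and liver replicate 2 is listed at 0 for Gimap5 and Gimap7.

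Gimap5 and Gimap1 were named above for the loss of mature T cells in mice that lack them. Together with Gimap8 they had the narrowest spans of the family between group means. The highest mean was 6.50-fold the lowest for Gimap5, 7.13-fold for Gimap1 and 5.54-fold for Gimap8. A link between a member's role and its span was not tested. Gimap5 was 32.2, 35.4, 41.4 and 7.65 TPM in skin, against 158, 135, 215 and 96.6 TPM in spleen and 207, 177, 174 and 199 TPM in naive cells. The skin libraries were therefore all below the lowest spleen library, while spleen and naive libraries overlapped. In tumor it was 263, 214, 187 and 94.8 TPM, and the tumor mean of 190 ± 70.5 TPM was level with the naive mean of 189 ± 16.3 TPM (SD, n = 4 each). Spleen (151 ± 49.8 TPM), lung (122 ± 34.3), lymph node memory (116 ± 15.8), day 12 (110 ± 7.17) and liver (92.3 ± 75.02) followed, and skin was at 29.2 ± 14.8 TPM. No 2 neighbours in this order were free of overlap. Liver libraries held 183, 0, 98.6 and 87.3 TPM, and the library listed at 0 is the one with few genes above 0.

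Gimap1 was 54.5, 58.0, 54.5 and 15.9 TPM in skin, against 213, 269, 327 and 339 TPM in spleen. It was 396, 330, 318 and 260 TPM in lymph node memory cells, whose mean of 326 ± 55.7 TPM was the highest for this gene. The naive libraries, at 346, 310, 275 and 339 TPM, overlapped with them. Means then ran through spleen (287 ± 57.9 TPM), lung (248 ± 114), tumor (219 ± 61.0), day 12 (204 ± 11.7) and liver (115 ± 96.0) to skin (45.7 ± 19.96), again with each neighbour overlapping the next. The day 12 libraries, at 193 to 216 TPM, were all below the lowest naive library.

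Gimap3, the close paralog of Gimap5 in mice, had its highest level in naive cells. It was 711, 647, 659 and 664 TPM there, and no library of the next group, lung, reached that range. Skin held 84.7, 84.7, 74.6 and 20.6 TPM, against 238, 383, 554 and 445 TPM in spleen. Lung (448 ± 154 TPM), spleen (405 ± 132), lymph node memory (396 ± 90.5), tumor (275 ± 106), liver (213 ± 228) and day 12 (193 ± 20.02) overlapped in a row, and day 12 and skin (66.1 ± 30.8 TPM) did not. Tumor replicate 4, at 118 TPM, stood below the other tumor libraries, which were at 317 to 343 TPM.

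Gimap6, known to bind the autophagy protein GABARAPL2, followed a similar order. Spleen had 162, 214, 446 and 438 TPM, below and free of overlap with naive cells at 675, 616, 613 and 683 TPM, the highest group. Skin had 50.8, 48.7, 45.1 and 11.99 TPM and lay below every library of any other group, the lowest of which was liver replicate 3 at 50.9 TPM. Between these ends the tumor (299 ± 112 TPM), lymph node memory (264 ± 40.3), liver (252 ± 182), lung (241 ± 113) and day 12 (206 ± 15.1) means all had neighbours that overlapped.

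Gimap4, linked to the timing of T cell death, had the highest group mean of the family. It was 1090, 986, 838 and 416 TPM in tumor, against 388, 552, 624 and 551 TPM in spleen. The tumor mean, 832 ± 296 TPM, was above that of naive cells, 688 ± 33.9 TPM, but tumor replicate 4 lay below all 4 naive libraries, at 642 to 718 TPM. Skin held 43.0, 53.9, 56.5 and 10.6 TPM, lower than every other library of the series. The remaining means were 550 ± 142 TPM in lung, 529 ± 99.9 in spleen, 484 ± 30.7 at day 12, 467 ± 87.8 in lymph node memory cells and 331 ± 204 in liver, and only the step between liver and skin was free of overlap.

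Gimap7, which in human cells stimulates GTP hydrolysis of other family members by pairing with them, varied most. Skin had 1.79, 0.45, 0.30 and 1.23 TPM. Spleen had 147, 97.4, 143 and 135 TPM, so the highest skin library was far below the lowest spleen library. Tumor had 474, 368, 371 and 163 TPM, and each of these was above every spleen library. The tumor mean of 344 ± 130 TPM and the naive mean of 215 ± 21.1 TPM overlapped, and both stood above spleen at 130 ± 22.7 TPM. Lung was at 80.4 ± 39.8 TPM, day 12 at 78.1 ± 5.39 TPM and lymph node memory at 56.4 ± 10.2 TPM, with day 12 and lymph node memory not overlapping. Liver libraries held 103, 0, 23.1 and 65.4 TPM, and the value of 0 is again that of replicate 2. The highest mean was 365-fold the lowest for this gene, whereas the same ratio was between 5.54 (Gimap8) and 20.3 (Gimap4) for the other 7 members.

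Gimap8, a larger member with several GTP-binding domains in tandem, was the least abundant outside skin. Naive cells had 55.0, 55.6, 59.9 and 45.5 TPM, above all other groups except 1 lung library of 48.7 TPM. Skin had 11.7, 11.8, 7.06 and 8.39 TPM, against 30.6, 24.6, 32.6 and 37.0 TPM in spleen. At day 12 it was 14.0 to 17.2 TPM and in tumor 18.8 to 23.2 TPM, and both ranges were below the lowest spleen library. Lymph node memory (36.5 ± 3.93 TPM) and lung (32.2 ± 17.2) were close to spleen (31.2 ± 5.19), and liver libraries spread over 7.50 to 38.9 TPM.

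Gimap9, a member whose role is little known, had 67.5, 114, 180 and 148 TPM in spleen, with no overlap with naive cells at 211, 190, 189 and 216 TPM. Skin had 23.6, 18.2, 21.8 and 4.01 TPM and was below every other library. Lung (121 ± 39.7 TPM), tumor (115 ± 31.5), lymph node memory (103 ± 4.81), day 12 (96.0 ± 6.00) and liver (87.1 ± 39.4) lay between spleen and skin in that order, each overlapping the next.

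All 8 members stood lower in skin than in spleen. Summed over the 8 members, skin had 302, 311, 301 and 80.3 TPM, against 1404, 1789, 2522 and 2189 TPM in spleen. The skin mean, 249 ± 112 TPM, was 12.6% of the spleen mean of 1976 ± 485 TPM (SD, n = 4 each). On the log2(TPM + 1) scale Gimap7 was lower by the most, at -6.13 ± 0.78 (SE of the fit), followed by Gimap4 at -3.87 ± 0.40, Gimap6 at -3.03 ± 0.51 and Gimap9 at -2.99 ± 0.39. Gimap1 (-2.76 ± 0.42), Gimap3 (-2.72 ± 0.55), Gimap5 (-2.50 ± 0.87) and Gimap8 (-1.60 ± 0.38) were lower by less. In mean TPM, Gimap7 in skin was 0.943 ± 0.697 and stood at 0.722% of its spleen level, while Gimap8 stood at 31.2%. A fold on the log2(TPM + 1) scale understates the difference of a gene this low. The median of the 8 differences was -2.87, beside -0.12 over all 19738 genes tested. All 8 members were without overlap between skin and spleen, where 5.69% of all genes were lower without overlap. These values chose the members, so nothing is read from that count.

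**Figure D2:**
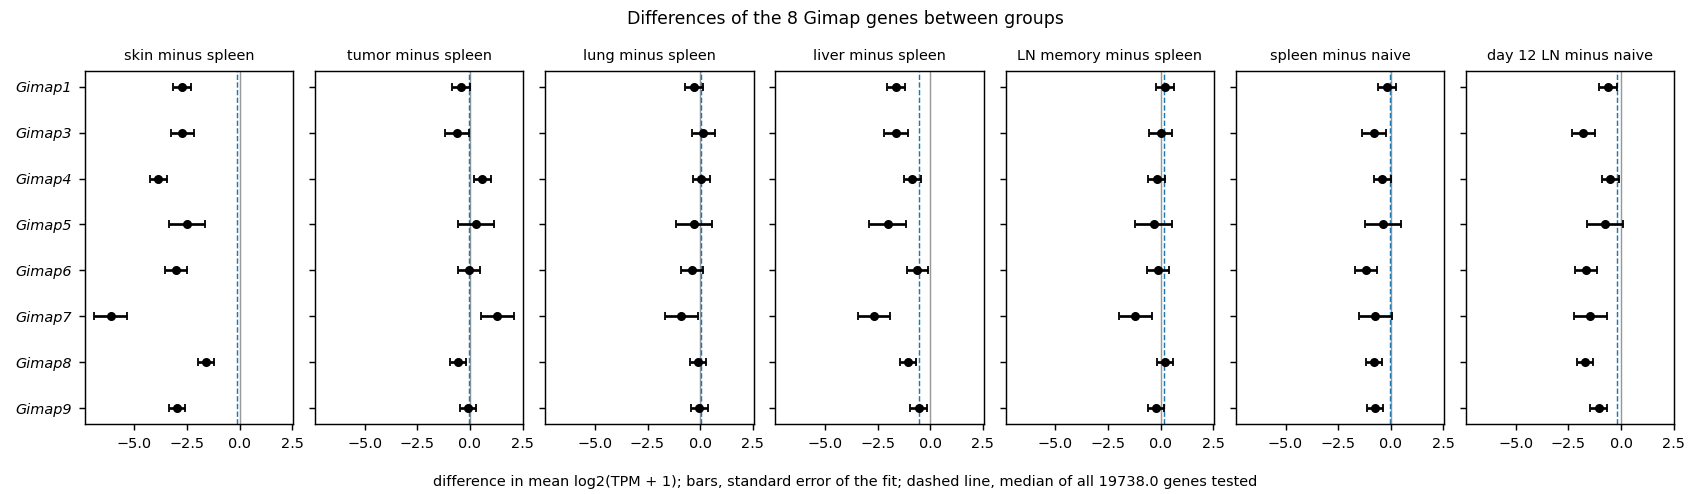
Differences in mean log2(TPM + 1) of the 8 Gimap genes in 7 comparisons, with the standard error of the fit as bars and the median of all 19738 genes as a dashed line. In the skin panel all 8 genes lie left of the dashed line, between -1.60 and -6.13, and in the tumor panel they lie on both sides of 0, with Gimap7 at 1.31.

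In 3 of the 4 skin libraries the low family level stood beside T cell transcripts as high as in spleen. The 16 T cell markers summed to 25559, 34547, 30315 and 5618 TPM in skin, against 16387, 23958, 32108 and 11940 TPM in spleen. Per 1000 TPM of T cell markers the family had 11.8, 9.01, 9.94 and 14.3 TPM in skin, against 85.7, 74.7, 78.5 and 183 TPM in spleen. Tumor was at 87.2 ± 5.01, lung at 90.2 ± 21.4, lymph node memory at 62.9 ± 17.0, day 12 at 46.5 ± 3.40 and naive cells at 73.4 ± 2.11 on this scale (SD, n = 4 each), so skin had the lowest values there as well. Scaled to T cell markers, the 8 log2 differences between skin and spleen ran from -6.09 to -1.56, and without the libraries low in T cell markers from -6.20 to -1.46, the same values as without the libraries numbered 4. Skin replicate 4, which had the lowest T cell sum of its group, also had the lowest family sum.

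**Figure D3:**
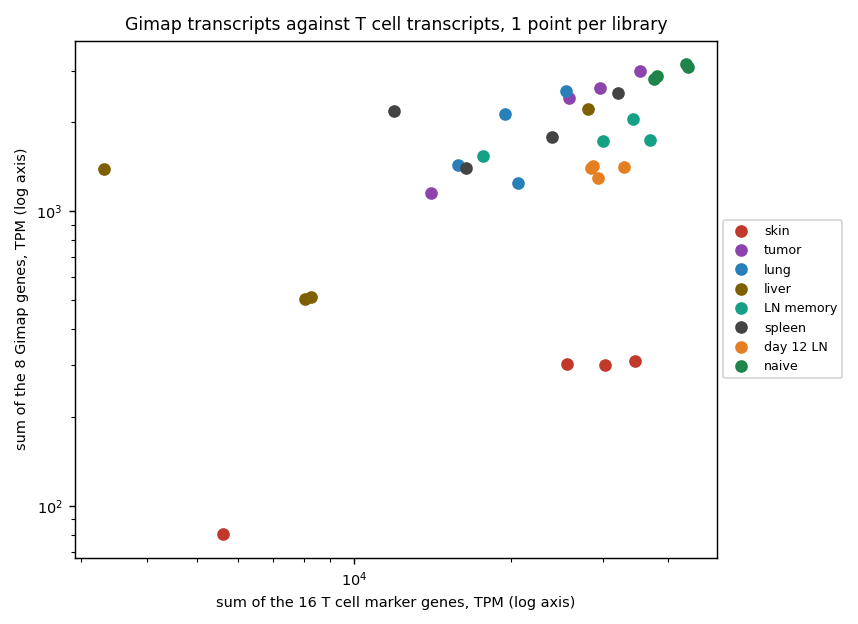
Summed TPM of the 8 Gimap genes (vertical, log axis) against summed TPM of 16 T cell marker genes (horizontal, log axis), 1 point per library and 1 colour per group. The 4 skin libraries lie below all others, between 80.3 and 311 TPM, also where their T cell sum is as high as that of tumor or lymph node libraries.

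Markers of other cells differed between these groups as well. B cell markers, whose cells also express Gimap genes, summed to 5.55 to 98.8 TPM in skin and 441 to 2357 TPM in spleen, with all 6 markers above 0 in spleen and 2 of 6 at 0 in skin replicates 1, 2 and 3. Myeloid markers summed to 22.3 to 3947 TPM in skin and 408 to 6982 TPM in spleen, and keratinocyte markers to 33.5 to 1740 TPM in skin and 0.08 to 6.04 TPM in spleen. Their part in the difference was not tested.

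Skin was also set against tumor and against lymph node memory cells, comparisons chosen after the values were seen. Between skin and tumor the 8 log2 differences ran from -7.44 for Gimap7 to -1.04 for Gimap8, with a median of -2.84 beside -0.09 over all genes. All 8 were without overlap, where 9% of all genes were lower without overlap. Between skin and lymph node memory cells, which were also collected 45 days after surgery but without enzyme digestion, they ran from -4.94 for Gimap7 to -1.83 for Gimap8, with a median of -2.83 beside -0.25. All 8 were again without overlap, against 17.2% of all genes, and nothing is read from either count. These comparisons and that with spleen share the skin libraries.

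Tumor T cells differed from spleen T cells in the make-up of the family more than in its sum. The 8 members summed to 2989, 2615, 2424 and 1152 TPM in tumor, which overlapped with the spleen libraries. Gimap7 (1.31 ± 0.78), Gimap4 (0.59 ± 0.40) and Gimap5 (0.29 ± 0.87) were higher in tumor on the log2 scale, and Gimap3 (-0.61 ± 0.55), Gimap8 (-0.55 ± 0.38), Gimap1 (-0.42 ± 0.42), Gimap9 (-0.10 ± 0.39) and Gimap6 (-0.05 ± 0.51) were lower. The signs of Gimap6 and Gimap9 turned with quantile normalization (0.08 and 0.02) and without the libraries low in T cell markers (0.50 and 0.21). Gimap7 was the only member higher without overlap and Gimap8 the only one lower without overlap, where 6.86% of all genes were higher and 7.82% lower without overlap. The median of the 8 was -0.08, beside -0.03 over all genes.

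Ratios within a library do not depend on its scaling. Gimap7 over Gimap3 was 1.14 to 1.39 in the 4 tumor libraries, 0.00402 to 0.0599 in skin and 0 to 0.408 in liver, against 0.254 to 0.620 in spleen and 0.295 to 0.342 in naive cells. Gimap4 over Gimap3 was 3.10 ± 0.370 in tumor, 0.604 ± 0.118 in skin, 2.75 ± 1.80 in liver and 2.52 ± 0.193 at day 12, against 1.36 ± 0.224 in spleen and 1.03 ± 0.0502 in naive cells (SD, n = 4 each), and its tumor range overlapped with liver and day 12. Gimap7 over Gimap9 was also free of overlap, at 2.28 to 3.23 in tumor against 0.793 to 2.18 in spleen. Gimap7 over Gimap4 overlapped, at 0.374 to 0.443 in tumor against 0.177 to 0.379 in spleen. Gimap5 over Gimap3, Gimap8 over Gimap3 and Gimap1 over Gimap6 overlapped between tumor and spleen as well. Tumor replicate 4, which had the lowest Gimap7 level of its group and the highest endothelial marker sum (474 TPM, against 88.1 to 219 TPM in the other 3), had the highest ratio of Gimap7 over Gimap3, 1.39, next to 1.38 in replicate 1. As a share of the family's TPM, Gimap7 made up 14.9% ± 0.863 in tumor and 0.592% ± 0.665 in skin, beside 6.94% ± 2.38 in spleen and 7.21% ± 0.309 in naive cells. Gimap4 made up 36.2% ± 1.29 in tumor and 15.9% ± 2.61 in skin, beside 27.1% ± 2.80 in spleen. The shares of Gimap3 (26.4% ± 1.49) and Gimap5 (11.3% ± 1.79) in skin were above those in spleen (20.1% ± 2.26 and 7.94% ± 2.83).

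**Figure D4:**
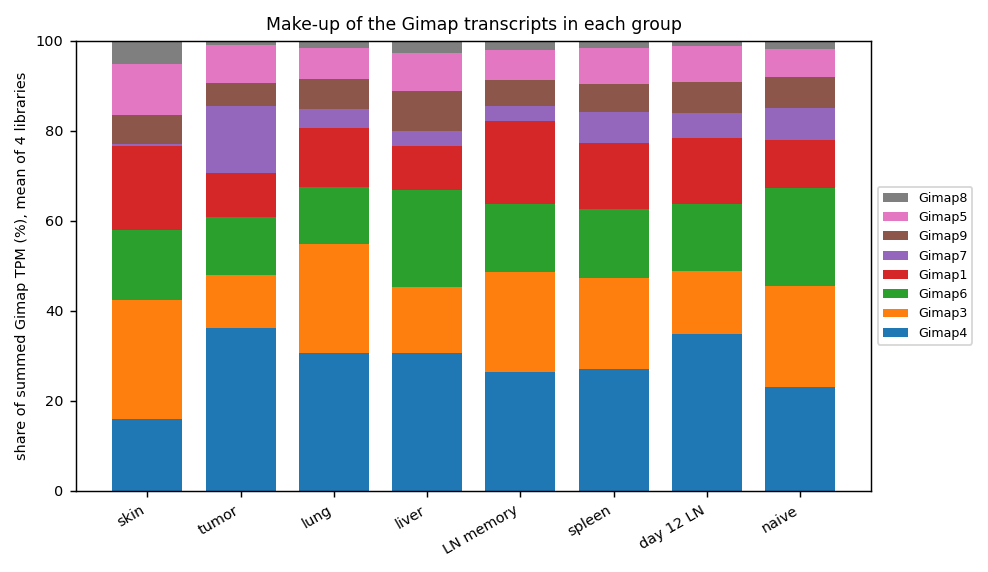
Mean share (%) of each Gimap gene in the summed TPM of the 8 genes, 1 stacked bar per group, mean of 4 libraries. Gimap7 takes 14.9% in tumor and 0.592% in skin, and Gimap4 takes 36.2% in tumor and 15.9% in skin.

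Tumor was set against the day 12 tumor-draining lymph node too, after the values were seen. All 8 members were higher in tumor, by 0.05 (Gimap1) to 2.03 (Gimap7) on the log2 scale, with a median of 0.42 beside 0.03 over all genes. Without tumor replicate 4 the median was 0.78. Gimap7, at 163 to 474 TPM in tumor against 73.2 to 85.7 TPM at day 12, and Gimap8 were the 2 members without overlap, where 20.1% of all genes were higher without overlap.

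Day 12 lymph node T cells had lower levels of the whole family than naive cells. The family summed to 1426, 1405, 1417 and 1295 TPM at day 12, against 3153, 2882, 2805 and 3090 TPM in naive cells, and the day 12 mean of 1386 ± 61.3 TPM was 46.5% of the naive mean of 2982 ± 166 TPM (SD, n = 4 each). Gimap3 (-1.80 ± 0.55), Gimap8 (-1.72 ± 0.38), Gimap6 (-1.65 ± 0.51) and Gimap7 (-1.45 ± 0.78) were lower by the most, and Gimap9 (-1.06 ± 0.39), Gimap5 (-0.77 ± 0.87), Gimap1 (-0.63 ± 0.42) and Gimap4 (-0.51 ± 0.40) by less. These standard errors pool the spread of all 8 groups and are not the spread of the 2 groups compared. On the log2 scale the SD of Gimap5 was 0.09 at day 12 and 0.12 in naive cells, against 3.47 in liver. In mean TPM, Gimap3 stood at 28.7% and Gimap4 at 70.3% of the naive level. The median was -1.26, beside -0.19 over all genes. All 8 were without overlap, but 31.7% of all genes were lower without overlap in this comparison of the most uniform groups. Scaled to T cell markers the median was -0.79 (0.27 over all genes) and all 8 differences kept their sign, with Gimap4 at -0.05 and Gimap1 at -0.17.

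Spleen T cells were between day 12 and naive cells in the mean of every member. All 8 members were lower in spleen than in naive cells, by -0.16 (Gimap1) to -1.17 (Gimap6) on the log2 scale, with a median of -0.74 beside -0.05 over all genes. Gimap3, Gimap4, Gimap6, Gimap7, Gimap8 and Gimap9 were without overlap, where 11.4% of all genes were lower without overlap. Spleen T cell marker sums, at 11940 to 32108 TPM, were below those of naive cells at 37668 to 43700 TPM. Scaled to those markers, Gimap1 (0.35), Gimap4 (0.11) and Gimap5 (0.14) turned to higher in spleen, and Gimap6 (-0.65) was lower by the most. This scaling moved the median of all genes to 0.46. The naive group is shared with the day 12 comparison.

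Lymph node memory cells had about the same family level as spleen, apart from Gimap7. The family summed to 1765 ± 216 TPM in lymph node memory cells and 1976 ± 485 TPM in spleen (SD, n = 4 each). Gimap7 was 57.0, 46.4, 52.1 and 70.3 TPM in lymph node memory cells, all below the lowest spleen library of 97.4 TPM, a log2 difference of -1.19 ± 0.78. It was the only member without overlap, where 1.06% of all genes were lower without overlap. The other 7 lay between -0.34 and 0.23, and Gimap8 turned to -0.03 with quantile normalization and Gimap6 to 0.07 without the libraries low in T cell markers. Scaled to T cell markers all 8 were lower in lymph node memory cells (-1.76 to -0.33), and the median of all genes moved to -0.40. Gimap7 was also lower in the memory cells than in the day 12 lymph node cells, at 46.4 to 70.3 TPM against 73.2 to 85.7 TPM.

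Lung and liver T cells overlapped with spleen for every member. Lung libraries summed to 2557, 1243, 1433 and 2134 TPM, and the 8 log2 differences from spleen ran from -0.89 (Gimap7) to 0.15 (Gimap3). Scaled to T cell markers Gimap3 (-0.01) and Gimap4 (-0.11) turned to lower in lung, and Gimap9 turned to 0.06 without the libraries low in those markers. No member was without overlap, where 0.958% of all genes were lower and 0.861% higher without overlap. Liver libraries summed to 2219, 502, 514 and 1391 TPM, and all 8 members were lower than in spleen, by -0.56 (Gimap9) to -2.68 (Gimap7), but Gimap4 (0.22), Gimap6 (0.47) and Gimap9 (0.52) turned to higher when scaled to T cell markers. None was without overlap, where 6.04% of all genes were lower without overlap. Only liver replicate 1 was not low in T cell markers, and without the 6 libraries low in T cell markers, which leaves that liver library alone against 3 of spleen, the median of the 8 was 0.19 rather than -1.36. Without liver replicate 2 alone it was -0.80. Per 1000 TPM of T cell markers the liver libraries had 78.9, 62.3, 62.2 and 419 TPM of the family.

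Over the 32 libraries the members varied together to different degrees. The 28 pairs had a median Pearson r of 0.80 on log2(TPM + 1), 15 of them at 0.8 or above. Gimap4 and Gimap9 were most alike (r 0.96), followed by Gimap6 and Gimap9 (0.95). All 7 pairs with Gimap8 were at 0.73 or below, and Gimap5 and Gimap8 were least alike (0.24). These values share library composition and group differences, and they carry no p. Several of them rest on liver replicate 2, which is listed at 0 for Gimap5 and Gimap7 and had 38.9 TPM of Gimap8. Over the other 31 libraries the median was 0.87, 22 of the 28 pairs were at 0.8 or above, and Gimap5 and Gimap8 had r 0.59. Gimap4 and Gimap9 were still most alike there (0.96), and the pairs with Gimap8 ran from 0.59 to 0.80.

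Among 7274 genes with a mean log2(TPM + 1) of at least 3, the 8 with the highest r to the mean of the members were Pyhin1 (0.92), RP23.364E18.2 (0.91), BC147527 (0.91), Hsh2d (0.90), BC094916 (0.90), Gimap1os (0.90), Ifi47 (0.89) and Slfn1 (0.87), over 32 libraries. Pyhin1 belongs to the interferon-inducible HIN-200 family and Ifi47 encodes an interferon-induced GTPase. Their skin levels were the lowest of the 8 groups. This is tied to how they were picked, by likeness to members that are all lowest in skin, so nothing is read from it. Pyhin1 was at 17.5 ± 10.9 TPM in skin and 113 ± 62.5 TPM in spleen, and Slfn1, a gene tied to T cell quiescence in mice, at 13.5 ± 9.47 TPM in skin and 109 ± 47.9 TPM in spleen (SD, n = 4 each). Gimap1os overlaps Gimap1 and is not independent of it. The mean of the T cell markers had r 0.51 with the family mean.

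Of the 10 nearest genes on each side of the cluster, none that was tested passed in skin against spleen in the main fit. Few such genes were tested and only 7.68% of all genes passed in either direction, so nothing is read from this. Of 22 genes that lie between the members or are the 10 nearest on each side, 16 were tested, and 2 fell in skin against spleen (limma, adjusted p under 0.05), where 7.68% of all genes passed in either direction. Both overlap members, so they are not independent of them. Gimap1os was 1.70, 2.33, 3.03 and 1.57 TPM in skin, against 27.3, 26.2, 17.6 and 16.3 TPM in spleen (log2 difference -2.84 ± 0.54, limma adjusted p = 0.000724). Gm28053 was listed at 0, 2.94, 3.37 and 0 TPM in skin, against 6.40, 14.8, 18.7 and 9.06 TPM in spleen (-2.60 ± 0.60, limma adjusted p = 0.00529, and 0.112 when only skin and spleen were fitted). The nearest genes outside the cluster on each side, AI854703 (-0.06 ± 0.40) and Tmem176b (1.29 ± 0.60), did not pass, with limma adjusted p of 0.975 and 0.236. Without the libraries numbered 4, Gm28053 lost its call (adjusted p = 0.0635) and Tmem176a, outside the cluster, rose (1.92, limma adjusted p = 0.0335).

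**Figure D5:**
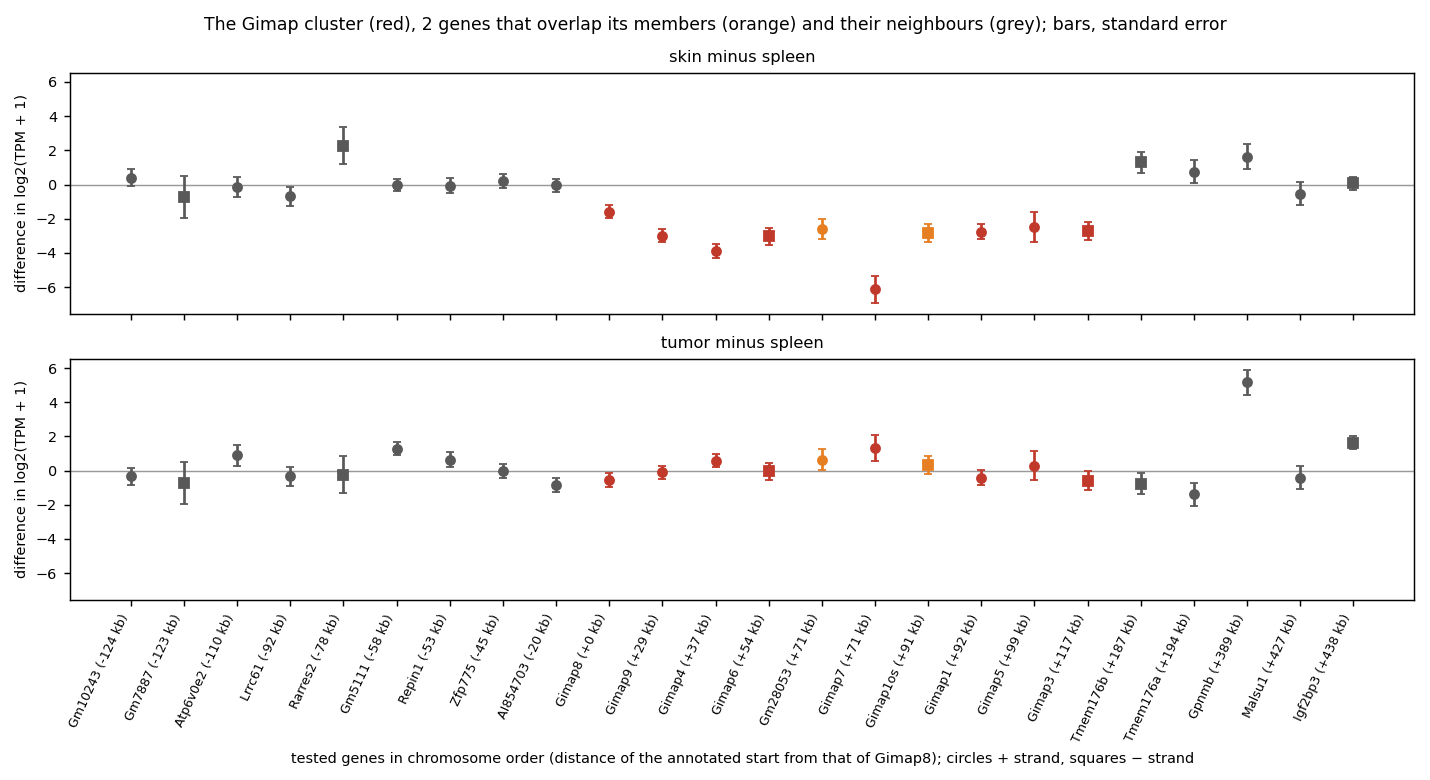
Differences in mean log2(TPM + 1), with standard errors as bars, for the tested genes of the Gimap cluster and its surroundings in chromosome order, for skin minus spleen (top) and tumor minus spleen (bottom). Labels give the distance of each annotated start from that of Gimap8, circles are plus strand and squares minus strand. In the top panel the 8 members and the 2 genes overlapping them lie at -1.60 or below, while the flanking genes lie between -0.72 and 2.27.

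In tumor against spleen 3 of the 16 rose and none fell, where 6.25% of all genes passed. Gpnmb, a gene of melanocytes, melanoma and macrophages, was 57.1, 124, 55.4 and 54.7 TPM in tumor, against 3.16, 0.34, 0.58 and 0.62 TPM in spleen (5.15 ± 0.72, limma adjusted p = 1.66e-05). Melanocyte and melanoma markers summed to 358 to 840 TPM in tumor and 5.61 to 17.9 TPM in spleen, and their part in this was not tested. Igf2bp3, an RNA-binding protein gene (1.64 ± 0.39, limma adjusted p = 0.00785), and Gm5111 (1.29 ± 0.37, 0.0302) rose at low levels, with tumor means of 4.30 and 2.08 TPM and spleen means of 0.625 and 0.125 TPM. Igf2bp3 lost its call without tumor replicate 4 (adjusted p = 0.0513), and Gm5111 without tumor replicate 4 too (0.168). When only tumor and spleen were fitted, Gpnmb alone passed (Igf2bp3 0.0641, Gm5111 0.0956).

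At day 12, Igf2bp3 (1.87 ± 0.39, limma adjusted p = 0.00101) and the zinc finger gene Repin1 (2.08 ± 0.44, 0.00123) rose against naive cells, 2 of 16, where 11.1% of all genes passed. In spleen against naive cells 3 of 16 rose, where 6.08% passed. They were Tmem176a (2.58 ± 0.68, limma adjusted p = 0.0186) and Tmem176b (2.54 ± 0.60, 0.00804), a pair of membrane protein genes also strong in myeloid cells, and Repin1 (1.49 ± 0.44, 0.0382). Myeloid markers summed to 408 to 6982 TPM in spleen and 1.76 to 3.71 TPM in naive cells, and their part was not tested. Tmem176a lost its call without spleen replicate 2 (adjusted p = 0.0867) or naive replicate 2 (0.0580), and Repin1 without spleen replicate 2 (0.180) and in 5 other such fits. In lymph node memory cells against spleen none of the 16 passed in limma, 4 had an unadjusted p under 0.05, and 0.481% of all genes passed.

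A list of 29 genes tied to the family's known partners and pathways held the Bcl2 family, GSK3, beta-catenin and FOXO genes, autophagy genes, and genes of IL-7 and Notch signalling. All 29 were tested. In skin against spleen, 3 rose and 1 fell, where 7.68% of all genes passed, and the list's median was -0.01, beside -0.12 over all genes. Il7r, the receptor subunit for the survival cytokine IL-7, was 43.0, 68.2, 46.3 and 11.8 TPM in skin, against 154, 139, 140 and 197 TPM in spleen (-2.09 ± 0.42, limma adjusted p = 0.00128). The groups did not overlap. Bcl2l1, which encodes the anti-apoptotic protein Bcl-xL, was 76.4, 40.7, 51.4 and 16.0 TPM in skin, against 4.11, 9.09, 3.97 and 16.7 TPM in spleen (2.33 ± 0.51, 0.00325). Here skin replicate 4 overlapped with spleen replicate 4.

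The other genes that rose in skin belong to autophagy. Map1lc3a, an LC3 protein of the autophagosome membrane, was 87.2, 95.6, 65.7 and 116 TPM in skin, against 9.74, 13.5, 11.96 and 21.7 TPM in spleen (2.63 ± 0.35, limma adjusted p = 6.24e-06). Its highest skin value was in replicate 4, which had the lowest T cell marker sum (5618 TPM) and highest keratinocyte marker sum (1740 TPM) of the group. Its lowest was in replicate 3, which had the lowest keratinocyte marker sum (33.5 TPM). The part of other cells in this was not tested. Sqstm1, the autophagy receptor p62, was 641, 527, 503 and 118 TPM in skin, against 100.2, 154, 169 and 208 TPM in spleen (1.30 ± 0.38, 0.0289). Sqstm1 lost its call without skin replicates 1, 2 or 3 or spleen replicates 1 or 2 (adjusted p = 0.0592 to 0.138). Among the autophagy genes of the same list, Gabarapl2 (-0.68), Gabarap (-0.33), Map1lc3b (0.02), Atg5 (-0.14), Atg7 (-0.35), Becn1 (0.14) and Gabarapl1 (0.83) did not pass. When only skin and spleen were fitted, Map1lc3a alone of the list passed (Il7r 0.0935, Bcl2l1 0.112, Sqstm1 0.336). Without the libraries low in T cell markers, 11 of the list passed in place of 4. Mcl1, of the Bcl2 family, rose without the libraries numbered 4 (1.23, limma adjusted p = 0.0137). In the main fit it did not pass (0.26, limma adjusted p = 0.835).

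In tumor against spleen, 3 of the 29 fell and none rose, where 6.25% of all genes passed, with a list median of -0.19 beside -0.03 over all genes. Il7r was 5.88, 6.81, 13.5 and 3.91 TPM in tumor, far below the spleen libraries given above (-4.32 ± 0.42, limma adjusted p = 3.68e-08). Foxo1, a transcription factor of naive and memory T cells that drives Il7r, was 6.69, 6.98, 6.06 and 3.95 TPM in tumor, against 11.4, 25.1, 36.0 and 32.1 TPM in spleen (-1.88 ± 0.45, 0.00863). Gabarapl2, the partner of Gimap6, was 186, 149, 137 and 94.9 TPM in tumor, against 450, 503, 219 and 426 TPM in spleen (-1.46 ± 0.39, 0.021). None of these 3 overlapped between tumor and spleen, where 7.82% of all genes were lower without overlap. Gabarapl2 lost its call without tumor replicates 3 or 4 or spleen replicates 1 or 2 (adjusted p = 0.0527 to 0.0889). Without the libraries numbered 4, Foxo1 (0.0786) and Gabarapl2 (0.133) lost their calls and the apoptosis genes Bcl2l1 (1.95, limma adjusted p = 0.0434) and Bcl2l11 (2.68, 0.0326) rose. Low Il7r stood beside high Gimap7 in tumor and beside low Gimap7 in skin, both against spleen. At day 12 both genes were lower than in naive cells. A relation between the 2 genes was not tested.

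At day 12 against naive cells, 1 of the 29 rose and 3 fell, where 11.1% of all genes passed, with a list median of -0.10 beside -0.19 over all genes. Bcl2, the anti-apoptotic protein, was 3.67, 3.81, 2.61 and 3.66 TPM at day 12, against 53.0, 34.5, 31.1 and 39.4 TPM in naive cells (-3.17 ± 0.61, limma adjusted p = 0.000408). Il7r was 20.5 to 27.2 TPM at day 12 and 105 to 120 TPM in naive cells (-2.13 ± 0.42, 0.000556), and Foxo1 was 19.9 to 25.4 TPM at day 12 and 62.8 to 74.1 TPM in naive cells (-1.52 ± 0.45, 0.0245). Atg7, an enzyme of autophagosome formation, was 32.2 to 40.2 TPM at day 12 and 12.2 to 16.2 TPM in naive cells (1.38 ± 0.42, 0.0303). None of these 4 overlapped between the groups. In this comparison 31.7% of all genes were lower without overlap, and the share higher without overlap was not computed. Nothing is read from that count. The calls of Atg7 and Foxo1 were lost in 7 and 6 of the 8 fits without a single library (adjusted p up to 0.0800 and 0.0664), and 18 of the 29 passed when only these 2 groups were fitted.

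In spleen against naive cells Rbpj, the DNA-binding partner of Notch, rose and no gene of the list fell, where 6.08% of all genes passed. It was 113, 200, 58.6 and 54.7 TPM in spleen, against 25.3, 21.2, 17.0 and 20.9 TPM in naive cells (2.09 ± 0.59, limma adjusted p = 0.0292), without overlap. Its call was lost in 6 of the 8 fits without a single library, most with spleen replicate 2 left out (0.137), and 12 of the list passed without the 6 libraries low in T cell markers, among them spleen replicate 4. In lymph node memory cells against spleen none of the 29 passed in limma, where 0.481% of all genes passed, and 2 had an unadjusted p under 0.05.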

How the data were processed

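Bulk RNA sequencing of 32 libraries (8 groups of 4, grouped by the labels) was used. Alignment was with Bowtie to mm10, per the submitters' processing notes, and no source used here gives the counting program or the gene annotation. The authors deposited natural log values of TPM + 1, which was settled from the values: converted back, they are multiples of 0.01 TPM and sum to 999999.06 to 1000000.8 TPM per library. Read depth and counting error are therefore unknown. Values were converted to TPM and fitted as log2(TPM + 1) with limma 3.58.1 (R 4.3.3, trend, 8 groups in 1 fit, 24 residual degrees of freedom) over the 19738 genes that reached 1 TPM in no fewer than 4 libraries, with Benjamini-Hochberg adjustment over all of them and a threshold of 0.05. The fit was tested on simulated data. Its standard errors pool the spread of each gene over all 8 groups. Members, lists, motifs and comparisons were chosen with earlier results of these data known. Named beside the 8 members are every called gene of the 29 linked genes and of the 16 tested neighbours, up to 6 per list and comparison, and the 8 genes most alike in r. Positions come from GENCODE for GRCm38, which held 82.2% of the table's gene names, and promoters from RefSeq. Alternatives were a pseudocount of 0.1, no filter, a filter at 5 TPM, 2-group fits, a replicate block, array weights, scaling to T cell markers, quantile normalization and leaving out each library. Leaving out the 6 libraries low in T cell markers, or the 8 libraries numbered 4, was added after the data were seen. Python 3.11.15 with NumPy 2.4.6, pandas 2.3.3 and Matplotlib 3.10.9 was used for the rest.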

Additional observations from a re-analysis of the deposited data

Results flagged for a closer look

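In 72 sets of 4 libraries, made of each member and the family sum in each group, a library was looked for whose gap to the nearest other was a large part of the group's range (above Dixon's 95% critical value). Chance gives such a gap in about 1 in 20 sets. It was found in 8 sets, and in each of them replicate 4 was the lowest of its group. The sets share libraries, the members vary together and the family sum is made of them. These 8 are therefore not separate events, and their number cannot be set against that rate.

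In skin, replicate 4 stood apart for Gimap1 (15.9 TPM, next library 54.5), Gimap3 (20.6 TPM, next 74.6), Gimap6 (11.99 TPM, next 45.1) and the family sum (80.3 TPM, next 301). This library had a T cell marker sum of 5618 TPM, the lowest of its group. In tumor, replicate 4 stood apart for Gimap3 (118 TPM, next 317) and Gimap6 (133 TPM, next 335), with a T cell marker sum of 14025 TPM. At day 12, replicate 4 stood apart for Gimap4 (438 TPM, next 496) and the family sum (1295 TPM, next 1405), and its T cell marker sum of 29336 TPM was within the range of the other 3 libraries. The part of T cell content in these values was not tested.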

How the results depend on the processing

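The medians of the 8 members kept their sign in all alternatives for skin against spleen (-3.11 to -2.29), tumor or lymph node memory cells, for day 12 and spleen against naive cells, and for tumor against day 12. Relative to T cell RNA they were -0.79 (day 12 against naive), -0.22 (spleen against naive), -0.72 (lymph node memory against spleen) and -0.28 (liver against spleen). Quantile normalization gave -1.47 for day 12 against naive cells. Without the libraries low in T cell markers, liver against spleen was 0.19, a change of sign with 1 liver library left. Without liver replicate 2 it was -0.80. Leaving out single libraries moved the sign for lymph node memory (-0.31 to 0.02), tumor (-0.35 to 0.20) and lung (-0.38 to 0.02) against spleen. Scaling to T cell RNA moved the median of all genes by more than 0.1, to 0.27 (day 12 against naive), 0.46 (spleen against naive), -0.40 (lymph node memory against spleen), -0.11 (lung against spleen), 0.55 (liver against spleen) and 0.36 (skin against lymph node memory). Quantile normalization moved it by as much for day 12 against naive (to -0.09), lymph node memory (0.01) and liver (-0.08) against spleen, skin against lymph node memory (-0.04) and tumor against day 12 (-0.09).

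Counts of called genes depended more on the fit, and the cause was not tested. For the linked genes at day 12 the 4 calls became 2 with a pseudocount of 0.1, 18 with only the 2 groups, 19 with array weights, 11 without libraries low in T cell markers and 2 to 3 without single libraries, and the 2 neighbours became 1 with a filter at 5 TPM, 6 with 2 groups, 7 with weights and 4 without low libraries. For spleen against naive cells the 1 linked call became 0 with no filter, 2 at 5 TPM, 3 with 2 groups, 6 with weights, 12 without low libraries and 0 to 3 without single libraries, and the 3 neighbours 1 to 3. For lymph node memory against spleen the linked count of 0 became 1 with weights and 4 without low libraries, and the neighbour count of 0 became 1 in both and 0 to 1 without single libraries. For skin against spleen the 4 linked calls became 1 with 2 groups and 11 without low libraries (3 to 5 without single libraries), and the 2 neighbours 1 and 4. For tumor against spleen the 3 linked calls became 6 with weights and 7 without low libraries (2 to 4 without single libraries), and the 3 neighbours 1 at 5 TPM, 1 with 2 groups and 1 to 3 without single libraries. Over all genes, day 12 against naive cells gave 1175 higher and 1014 lower, but 4103 and 6639 with only the 2 groups, and skin against spleen 855 and 660, but 154 and 117. Without the 8 libraries numbered 4, the linked calls became 2 (both lower) at day 12 against naive cells, 2 in spleen against naive cells and 5 in skin against spleen, and stayed at 3 in tumor against spleen, with 2 higher and 1 lower in place of 3 lower. The tumor neighbours became 1, and over all genes skin against spleen gave 956 higher and 359 lower and lymph node memory against spleen 172 and 38, in place of 71 and 24. Of 393 values for 22 single calls, 322 kept the call, 71 lost it and 0 changed sign.

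Same-numbered libraries had correlations of -0.39 to 0.25, not all above 0.1, so replicate numbers were not treated as pairs, although the libraries numbered 4 shared features in all groups. With the replicate number as a block the medians were as before (-2.87 for skin against spleen). In spleen against naive cells Repin1 lost its call (adjusted p = 0.0514) and Gm7887 gained one (0.0404), and the other calls of both lists were as before. Over all genes the block gave 864 higher and 759 lower for skin against spleen.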
